A study of Mus musculus with 93 samples.

Results

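Granulosa cells of Esr2 knockout mice at 6 months of age were compared with those of Esr2 knockout mice at 4 weeks, over all genes and with the genes of the luteal program described one by one. The members were chosen by the genotype, cell type and age in the sample labels: 6 libraries at 6 months and 7 libraries at 4 weeks, 13 of the 93 samples of the series. RNA was measured by Smart-seq2, a method that copies full-length cDNA from very small amounts of RNA. Set beside them were 12 libraries of wild type granulosa cells at 6 months, 7 of wild type at 4 weeks and, as a middle age, 5 of knockout at 7 weeks. All came from mouse ovary and carried the label of granulosa cells, and both knockout groups lacked estrogen receptor beta, the product of Esr2. The labels give no treatment, strain, design of the deletion, animals, litters or number of cells per library, so p-values measure the spread between libraries, part of which may be technical. Each age came as 1 table, so age and anything else that differed between the tables cannot be told apart.

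Granulosa cells surround the oocyte in the follicle, answer follicle-stimulating hormone and make estradiol. As a follicle matures its granulosa cells gain the receptor for luteinizing hormone, and after ovulation they become luteal cells, which take up and make cholesterol and turn it into progesterone. Estrogen receptor beta is the main estrogen receptor of granulosa cells, and mice without it are known for a weak response to the ovulatory signal and few corpora lutea.

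Esr2 checked the labels: it had 0 counts in 6 of 6 knockout libraries at 6 months and in 7 of 7 at 4 weeks, which allows up to 0.17 CPM at 6 months and 0.118 CPM at 4 weeks, pooled over each group and for counting error only. CPM are counts scaled to a common library size. Wild type libraries held 5.69 to 18.1 CPM at 6 months and 11.5 to 39.6 CPM at 4 weeks. Total counts ran from 1486396 to 5130419 in knockout libraries at 6 months and from 2814194 to 4085475 at 4 weeks. Genes with a count numbered 14519 to 16559 at 6 months and 17520 to 18725 at 4 weeks. With every library thinned to the same depth the ranges overlapped, at 13324 to 14336 and 13897 to 14667. The tilt of expression with transcript length, a rank correlation across genes within a library, ran from -0.333 to -0.00388 at 6 months and from -0.0765 to 0.202 at 4 weeks.

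Some libraries stood apart. Ovgp1, the oviductal glycoprotein gene, lay between 21.9 and 132 CPM in 2 of the 6 libraries at 6 months and between 895 and 4316 CPM in the other 4. At 4 weeks it was 1854 and 4957 CPM in 2 libraries and 82.1 to 442 CPM in the other 5. The first principal component, the largest axis of variation among the 500 most variable genes (52.54%), followed this split and not age. That component ran from 6.575 to 39.71 in the high-Ovgp1 libraries of both ages and from -35.2 to -16.11 in the low-Ovgp1 ones. The second component (20.61%) ran from -31.2 to 0.4219 at 6 months and from 2.83 to 26.32 at 4 weeks. The 2 libraries at 6 months with low Ovgp1 also had the lowest sums of surface epithelium markers, 378 and 360 CPM. Those sums ran over 360 to 1200 CPM at 6 months against 188 to 876 CPM at 4 weeks, and 5 of 9 tested (Krt8, Krt18, Upk3b, Upk1b and Aldh1a2) rose in the age contrast. Theca and stroma markers summed to 1374 to 2286 CPM at 6 months against 484 to 976 CPM at 4 weeks, without overlap. Star, itself a luteal gene, made up much of that sum, and the sum without Star was not compared. Of the 10 tested, Aldh1a1, Dcn and Star rose and Ptch1 fell, and the defining theca genes Cyp17a1 and Insl3 were not among the joined genes. Of the 8 mural granulosa markers, only Lhcgr and Cyp11a1 passed, both higher. Immune markers, with Cd52, Cd74, H2-Aa and Cd79a higher among 15, summed to 287 to 1158 CPM at 6 months against 286 to 640 CPM at 4 weeks. Granulosa markers summed to 2183 to 5577 CPM (median 3156) at 6 months against 3335 to 6730 CPM (median 6151) at 4 weeks, with Fst lower among 12. The ranges overlapped, and library 4 at 6 months was the lowest. The 2 libraries at 6 months with low Ovgp1 had the highest granulosa sums of that age, 5249 and 5577 CPM. The 2 at 4 weeks with high Ovgp1 had the lowest of theirs, 3335 and 3342 CPM. Of the smooth muscle markers Acta2 and Des rose among 6, but the sums overlapped. They were 28.3 to 219 CPM (median 39.8) at 6 months, the highest in library 3, and 34.1 to 81.4 CPM (median 43.8) at 4 weeks. None of the 8 oocyte and 5 erythroid markers tested passed. The part of any of these cells in the results was not tested. In bulk RNA, a change in the share of a cell type and a change of RNA within its cells cannot be told apart. Counts that lead a comparison are also given for the libraries under 500 CPM of Ovgp1 (2 at 6 months, 5 at 4 weeks) and with the surface epithelium sum as a covariate, settings chosen after seeing the data.

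**Figure D1:**
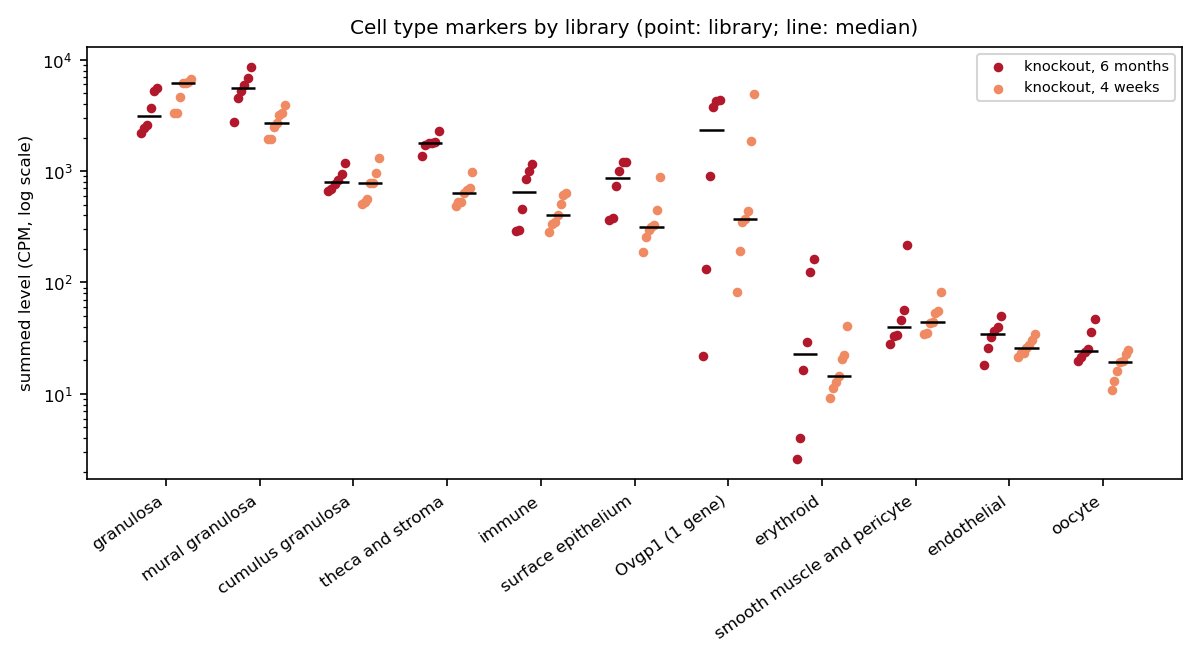
Summed level of cell type markers in CPM (log scale) in each knockout library at 6 months (dark) and 4 weeks (light), with Ovgp1 as a single gene; points are libraries and lines are medians. Theca and stroma markers, with Star making up much of their sum, lie at 1374 to 2286 CPM at 6 months and 484 to 976 CPM at 4 weeks. Ovgp1 spreads widely within both ages.

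Between 6 months and 4 weeks, knockout granulosa cells differed most evenly in the genes that make cholesterol, 22 of 25 of which rose, and genes of the luteal program moved in both directions, 7 of 16 up and 2 down. Of antioxidant genes 40.7% rose, of ovulation genes 32%, of cell cycle genes 31.2% and of glycolysis genes 25%. Of Wnt signalling genes 28.6% fell, of matrix and of TGF-beta family genes 23.5% each, and of the follicle-stimulating hormone response 22.2%. In all, 1970 of 14307 genes tested passed, or 13.8%, 941 higher (6.58%) and 1029 lower (7.19%). The test was the quasi-likelihood test of edgeR with an adjusted p under 0.05, in 1 fit to all 42 granulosa libraries. At least a 2-fold change was seen in 1071 of them, 480 higher and 591 lower. The libraries of the 2 ages did not overlap for 487 genes with higher levels at 6 months (3.4%) and 378 with lower levels (2.64%). Scaling by library totals moved the median of all genes by -0.24 on the log2 scale and gave 517 higher (3.61%) and 2035 lower (14.2%), and removing the length trend gave 890 higher and 569 lower. In the libraries under 500 CPM of Ovgp1, which leave 2 at 6 months, 308 of 15125 genes tested passed (2.04%), 194 higher (1.28%) and 114 lower (0.754%), 292 of them among the 1970. The surface epithelium covariate left 802 (5.61%), of which 759 were shared with the 1970. Dropping 1 library gave 1290 genes without 6 month library 3, 1261 without 6 month library 5 and 1306 without 4 week library 5.

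Fewer list members passed where libraries were set aside. With the low-Ovgp1 libraries alone, where 1.28% of all genes were called higher and 0.754% lower, the count higher and the count lower were 2 and 0 of 27 antioxidant genes, 5 and 0 of 25 ovulation genes, and 1 and 0 of 20 glycolysis genes. They were 1 and 3 of 35 matrix genes, 1 and 1 of 35 TGF-beta family genes, 0 and 1 of 22 Wnt genes, 1 and 0 of 23 apoptosis genes and 0 and 1 of 24 interferon genes. None of the 28 immediate early and heat shock genes passed there. The glycolysis gene that passed there was not among those called with all libraries. With the surface epithelium covariate, where 3.19% of all genes were called higher and 2.41% lower, the lower counts were 4 of matrix, 6 of TGF-beta family, 2 of Wnt, 1 of apoptosis, 3 of the follicle-stimulating hormone response and 1 of immediate early genes, and glycolysis had 1 higher. Cholesterol synthesis kept 17 of 25 higher in the first setting and 22 in the second.

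**Figure D2:**
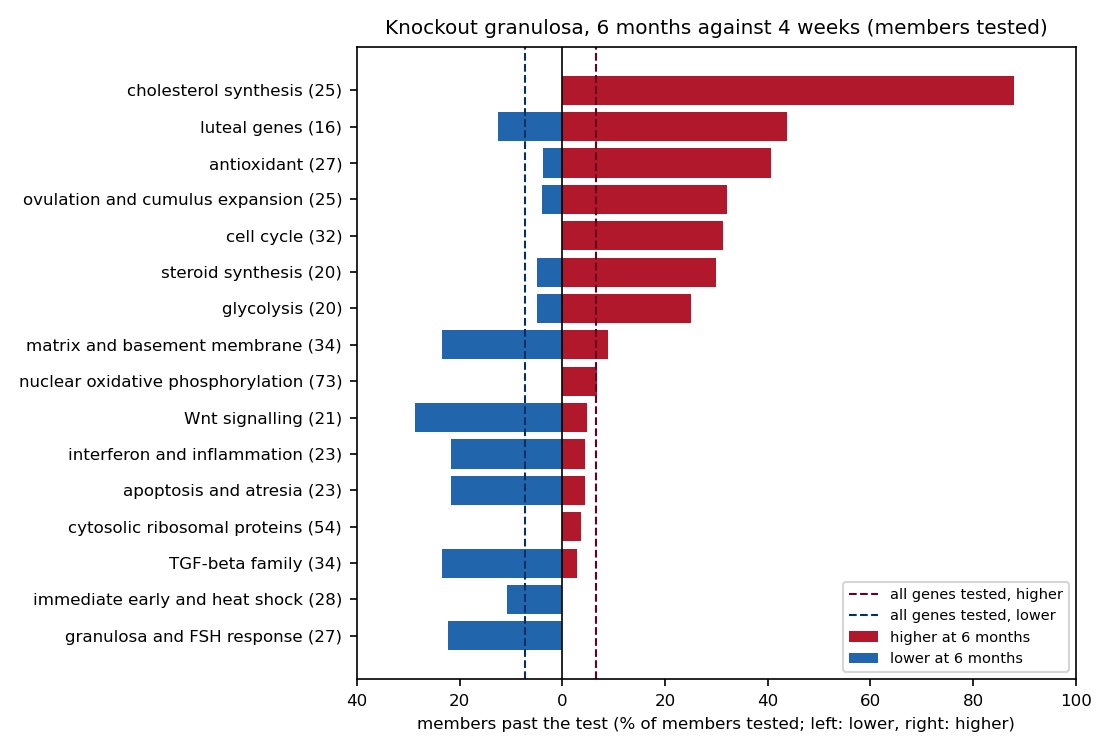
Share of the tested members of each gene list (number tested in brackets) that passed the test in knockout granulosa cells, higher at 6 months to the right and lower to the left, in percent; dashed lines mark the 6.58% of all genes called higher and the 7.19% called lower. Cholesterol synthesis stands at 88% higher, and Wnt signalling has the longest bar on the lower side, at 28.6%.

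The luteal list asked how far genes of the luteal step, several of them low in young knockout cells, came up with age. Of its 16 members, all tested, 7 were higher and 2 lower at 6 months, with a median log2 fold change of 0.66 against -0.06 over all genes tested. Star, Lhcgr, Parm1, Cyp11a1, Akr1c18 and Prlr were among those that rose, and Ghr and Cdkn1b fell. Scaling by library totals left 6 higher and 3 lower. With the low-Ovgp1 libraries alone, 4 rose, Star, Lhcgr and Akr1c18 among them, and Ghr fell.

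Lhcgr encodes the receptor for luteinizing hormone, without which a follicle cannot respond to the ovulatory surge. In knockout libraries at 6 months it was 0.504, 6.43, 6.66, 8.06, 17.1 and 37.6 CPM. At 4 weeks the 7 knockout libraries held 1.21 to 3.59 CPM with a median of 1.95 CPM. Of the libraries at 6 months, 5 lay above every knockout library at 4 weeks and 1 lay below them all. The log2 fold change was 2.53 ± 0.52 (SE, adjusted p = 0.000975), and it missed the threshold with limma voom (adjusted p = 0.0721), while over the alternatives the adjusted p reached 0.0906. The level still stood low beside wild type: wild type libraries held 5.98 to 35 CPM (median 20.1) at 6 months and 18 to 91.8 CPM (median 42.5) at 4 weeks. Knockout at 6 months was lower than wild type at 4 weeks (log2 -1.71, adjusted p = 0.0133) and had a log2 value of -0.64 against wild type at 6 months (adjusted p = 0.365). Only 1 of 6 knockout libraries at 6 months exceeded the lowest wild type library at 4 weeks, and 5 of 6 exceeded the lowest at 6 months.

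Lhcgr lies on the minus strand of chromosome 17 from 88716481 to 88791990 (GRCm38). The 250 bases before its start were chosen for display because they hold 1 copy of AGGTCA, the element bound, alone or in pairs, by estrogen receptors and by steroidogenic factor 1, given in capitals; the window is chr17:88792015-88792264, minus strand, from RefSeq (GRCm38.p6).
Lhcgr: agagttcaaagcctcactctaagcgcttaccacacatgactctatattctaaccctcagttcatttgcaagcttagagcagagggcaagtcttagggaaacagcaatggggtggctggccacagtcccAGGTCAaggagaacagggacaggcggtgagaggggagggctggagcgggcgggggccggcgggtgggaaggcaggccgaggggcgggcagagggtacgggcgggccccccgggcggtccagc
AGGTCA was searched on both strands. It was present before a start of 4 of the 12 luteal genes with such a window, or 33.3%, against 13.1% of the 10264 tested genes with a window, and before 2 of the 5 luteal genes that rose. A match of letters is a description and says nothing of binding in these cells.

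The steroid-making genes of the list moved unevenly. Star carries cholesterol into the mitochondrion, the step that limits steroid output. Knockout libraries at 6 months held 1061 to 1957 CPM of Star (median 1534) and those at 4 weeks 150 to 564 CPM (median 229), so every library at 6 months lay above every library at 4 weeks. The log2 fold change was 2.54 ± 0.34 (adjusted p = 1.92e-06), and Star passed in all 28 alternatives. At 6 months it was also above wild type at 4 weeks (log2 2.04, adjusted p = 6.33e-05; 190 to 773 CPM), and against wild type at 6 months (347 to 1742 CPM) the value was 0.89 (adjusted p = 0.0561). Star counts among the theca and stroma markers and made up much of their sum, so that sum gives no separate view of theca cells. The part of theca cells in the level of Star was not tested.

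Cyp11a1 cuts the side chain of cholesterol and so opens steroid synthesis. It measured 2281 to 9816 CPM at 6 months (median 5324) and 884 to 2640 CPM at 4 weeks (median 1784) in knockout. The lowest library at 6 months, number 4, fell within the range of 4 weeks and the other 5 lay above it. The log2 fold change was 1.75 ± 0.41 (adjusted p = 0.00394), and 1.89 with adjusted p = 0.0665 in the libraries under 500 CPM of Ovgp1. The knockout range at 6 months overlapped both wild type ranges in part, with libraries 1 and 5 (6746 and 9816 CPM) above the highest wild type library at 6 months. The log2 value was 0.61 against wild type at 6 months (1632 to 5949 CPM, adjusted p = 0.297) and 0.17 against wild type at 4 weeks (1383 to 8863 CPM, adjusted p = 0.811).

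Akr1c18 inactivates progesterone. It had 203, 402, 602, 844, 923 and 940 CPM in knockout at 6 months, against 143 to 531 CPM (median 226) at 4 weeks. The lowest 2 libraries at 6 months overlapped those at 4 weeks. Its rise of 1.37 ± 0.34 on the log2 scale (adjusted p = 0.00642) left it below wild type at 6 months (887 to 2781 CPM; log2 -1.38, adjusted p = 0.00818) and at 4 weeks (735 to 2192 CPM; log2 -1.16, adjusted p = 0.0212). Hsd3b1, which makes progesterone itself, stood at 1152 to 3657 CPM at 6 months and 2976 to 4507 CPM at 4 weeks in knockout (log2 -0.48 ± 0.25, adjusted p = 0.2). Hsd17b7, an enzyme of cholesterol and estradiol synthesis, had a log2 value of -0.02 ± 0.30 (adjusted p = 0.969).

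Among receptors, Prlr, the receptor for prolactin, measured 62.1 to 254 CPM at 6 months and 58.3 to 191 CPM at 4 weeks in knockout. Library 4 at 6 months, at 62.1 CPM, lay far below the other 5, the lowest of which was 203 CPM. The log2 fold change of 0.76 ± 0.26 (adjusted p = 0.0437) was kept in 9 of 28 alternatives. Scarb1, the receptor for high-density lipoprotein, had 0.57 ± 0.32 (adjusted p = 0.224). Parm1, a membrane protein gene, held 540 to 818 CPM at 6 months and 306 to 401 CPM at 4 weeks, with no overlap (log2 0.87 ± 0.18, adjusted p = 0.00125).

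Ptgfr, whose ligand ends luteal life, and Oxtr had no call in the age contrast. Ptgfr, the receptor for prostaglandin F2 alpha, was 0 to 3.84 CPM in knockout at 6 months and 0.325 to 3.37 CPM at 4 weeks (log2 0.21 ± 0.51, adjusted p = 0.813). It lay below wild type at 6 months (3.68 to 20.8 CPM; log2 -2.32, adjusted p = 0.00149) and at 4 weeks (4.34 to 17.8 CPM; log2 -2.50, adjusted p = 0.000758), and 1 of 6 knockout libraries at 6 months exceeded the lowest wild type library of that age. Oxtr, the oxytocin receptor gene, held 5.64 to 24.9 CPM at 6 months and 2.92 to 13.5 CPM at 4 weeks in knockout (log2 0.96 ± 0.40, adjusted p = 0.0966). Ptgfr thus lay low in knockout at both ages, and Oxtr at 6 months overlapped wild type of that age (2.3 to 27 CPM; log2 0.30, adjusted p = 0.616).

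Ghr, the growth hormone receptor gene, went the other way. It held 2.86 to 15.4 CPM in knockout at 6 months and 20.6 to 43.4 CPM at 4 weeks, with no overlap (log2 -1.82 ± 0.31, adjusted p = 8.01e-05). Wild type libraries held 6.28 to 18.6 CPM at 6 months and 6.2 to 21 CPM at 4 weeks, close to the knockout values at 6 months (log2 -0.25, adjusted p = 0.614, within that age). Cdkn1b, a brake on the cell cycle, fell to 73.6 to 120 CPM at 6 months, against 114 to 258 CPM at 4 weeks (log2 -0.76 ± 0.26, adjusted p = 0.0458), a call kept in 9 of 28 alternatives. Cdkn1a, another such brake, had 0.25 ± 0.22 (adjusted p = 0.463), and Sfrp4, a secreted Wnt antagonist, 0.38 ± 0.27 (adjusted p = 0.368).

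**Figure D3:**
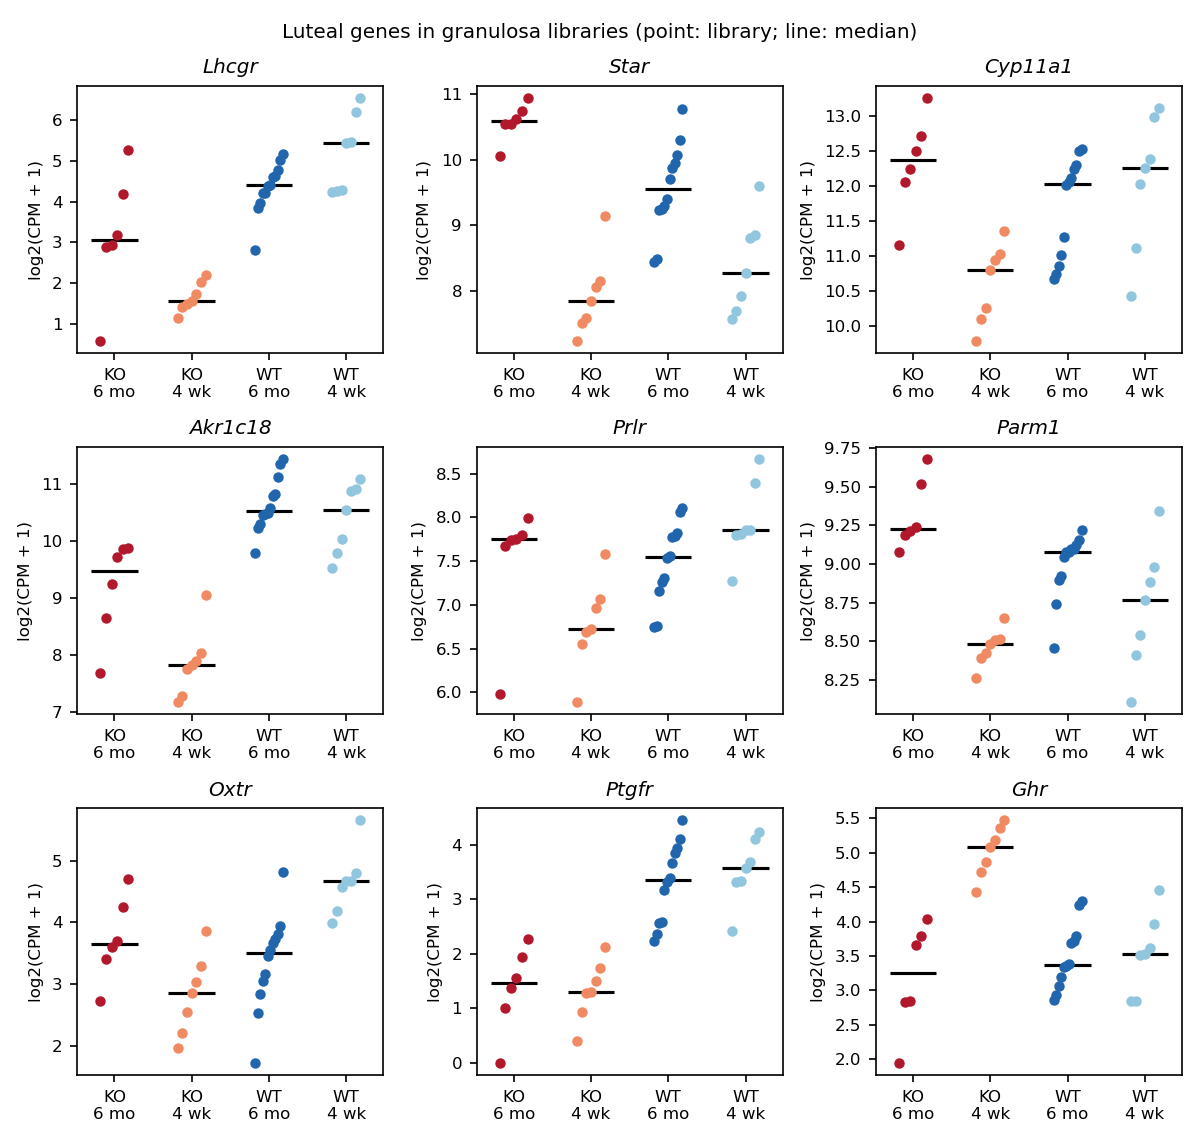
Level of 9 luteal genes, as log2(CPM + 1), in each library of knockout at 6 months and 4 weeks and of wild type at 6 months and 4 weeks; points are libraries and lines are medians. Star separates the 2 knockout ages, Ghr does so in the other direction, and Ptgfr is at most 3.84 CPM in the knockout libraries at 6 months while wild type reaches 20.8 CPM at 6 months.

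Counted over the whole list, knockout at 6 months against wild type at 6 months had 2 of 16 luteal genes higher (Hsd17b7 and Sfrp4) and 3 lower (Ptgfr, Akr1c18 and Cdkn1b). Of all genes tested 5.61% passed there, 2.96% higher and 2.66% lower. Against wild type at 4 weeks, where 15.6% passed, 7.19% higher and 8.4% lower, 4 were higher (Star, Sfrp4 and Parm1 among them) and 5 lower (Lhcgr, Ptgfr, Hsd3b1, Akr1c18 and Cdkn1b). Knockout at 4 weeks against wild type at 4 weeks, in the same fit, had 1 higher (Ghr) and 6 lower (Lhcgr, Prlr, Ptgfr, Oxtr, Cyp11a1 and Akr1c18), with 3.52% of all genes called, 1.37% higher and 2.15% lower. These comparisons share libraries with the age contrast and give their values side by side. The median log2 value of the 16 genes was 0.14 against wild type of the same age at 6 months, and -0.63 at 4 weeks. The low-Ovgp1 libraries, which hold 7 of the 12 wild type at 6 months and 6 of the 7 at 4 weeks, gave 0 luteal genes past the test against wild type at 6 months, where 0.251% of all genes passed (0.172% higher, 0.0793% lower). Against wild type at 4 weeks they gave 2, where 1.12% passed (0.74% higher, 0.377% lower). Only 2 knockout libraries at 6 months enter these counts.

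The knockout libraries at 7 weeks gave a middle age. The knockout medians of Lhcgr were 1.95 CPM at 4 weeks, 3.27 CPM at 7 weeks and 7.36 CPM at 6 months. Star had medians of 229, 220 and 1534 CPM at the same ages, and Akr1c18 226, 579 and 723 CPM. Star and Lhcgr differed between 6 months and 7 weeks (log2 2.26, adjusted p = 0.000205, and 1.62, adjusted p = 0.0391), as did Parm1 (0.54, adjusted p = 0.0478) and, lower, Cdkn1b (-0.99, adjusted p = 0.0126), with 22% of all genes called, 10% higher and 12% lower. None of the 16 luteal genes passed between 7 and 4 weeks, where 6 of 14307 genes passed (0.0419%) and 1218 had an unadjusted p under 0.05 in edgeR. Results of other tools on that contrast are not reported here.

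The same age contrast in wild type gave 1144 genes, or 8%, 454 higher (3.17%) and 690 lower (4.82%). Of the luteal genes, 2 rose, Star among them, and Oxtr, Hsd3b1 and Hsd17b7 fell there, with a median of -0.23. The difference between the knockout and wild type age contrasts was tested directly and passed for 94 genes (0.657%), 76 with a higher contrast in knockout (0.531%) and 18 with a lower one (0.126%). Of the 76, 62 also rose in knockout, and of the 18, 17 also fell in knockout. The count was 179 with DESeq2, 53 with limma voom, 47 at the depth of the shallowest library and 10 with the low-Ovgp1 libraries alone. Dropping 1 library gave 60 without 6 month library 2, 41 without 6 month library 5 and 52 without 4 week library 6.

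Luteal genes were 4 of these: Lhcgr, Oxtr and Cyp11a1 with a higher contrast in knockout and Ghr with a lower one. For Lhcgr the difference was 3.60 ± 0.65 on the log2 scale (adjusted p = 0.00231), made of 2.53 in knockout and -1.07 ± 0.38 in wild type. For Oxtr it was 2.23 ± 0.51 (adjusted p = 0.0222), where wild type fell by 1.27 on the log2 scale and knockout had 0.96. Cyp11a1 differed by 2.20 ± 0.53 (adjusted p = 0.0368) and Ghr by -1.73 ± 0.41 (adjusted p = 0.0261). With the low-Ovgp1 libraries alone the differences of Lhcgr, Oxtr and Cyp11a1 did not pass, while that of Ghr did. Star, which rose in wild type too, had a difference of 1.38 ± 0.43 (adjusted p = 0.166).

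The genes with the smallest p for a higher contrast in knockout were Slc12a8, Fam20a, Pik3c2g, Entpd1 and Col18a1. Slc12a8, of the cation chloride cotransporter family, had 92.3 to 533 CPM in knockout at 6 months and 24 to 38.3 CPM at 4 weeks, against 53.8 to 232 CPM in wild type at 6 months and 50.8 to 145 CPM at 4 weeks (difference 2.64 ± 0.38, adjusted p = 5.96e-05). Fam20a, a pseudokinase gene of the secretory pathway, had 21.7 to 62.3 CPM at 6 months and 3.12 to 14.6 CPM at 4 weeks in knockout (difference 3.21 ± 0.46, adjusted p = 5.96e-05). Both knockout groups were free of overlap for these genes, and the wild type ranges overlapped each other. Entpd1, which breaks down extracellular ATP, rose by 1.58 ± 0.28 in knockout and fell by 0.78 in wild type (difference 2.37 ± 0.36, adjusted p = 0.000161). The lipid kinase gene Pik3c2g rose by 1.51 ± 0.25 in knockout and fell by 0.72 in wild type (difference 2.23 ± 0.32, adjusted p = 6.55e-05). Col18a1, the basement membrane collagen from which endostatin is cut, measured 104 to 230 CPM in knockout at 6 months and 38.3 to 63.9 CPM at 4 weeks, while the wild type medians were 186 CPM at 6 months and 181 CPM at 4 weeks (difference 1.66 ± 0.27, adjusted p = 0.00036).

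A lower contrast in knockout was led by Thbs1, Rel, Mreg, Pim1 and Ddit4l. Thbs1, the matrix protein thrombospondin 1, which restrains vessel growth, fell to 31.9 to 82.9 CPM in knockout at 6 months, against 397 to 1130 CPM at 4 weeks. Wild type held 69.9 to 204 CPM at 6 months and 133 to 417 CPM at 4 weeks (difference -2.44 ± 0.40, adjusted p = 0.000495). The difference was -1.72 ± 0.37 for Rel, a subunit of NF-kappa B (adjusted p = 0.0138), and -2.29 ± 0.49 for the melanoregulin gene Mreg (adjusted p = 0.0138). It was -2.10 ± 0.47 for the kinase gene Pim1 (adjusted p = 0.0178) and -2.41 ± 0.54 for Ddit4l, an inhibitor of mTORC1 (adjusted p = 0.0205). All 5 fell in knockout without overlap between the ages.

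**Figure D4:**
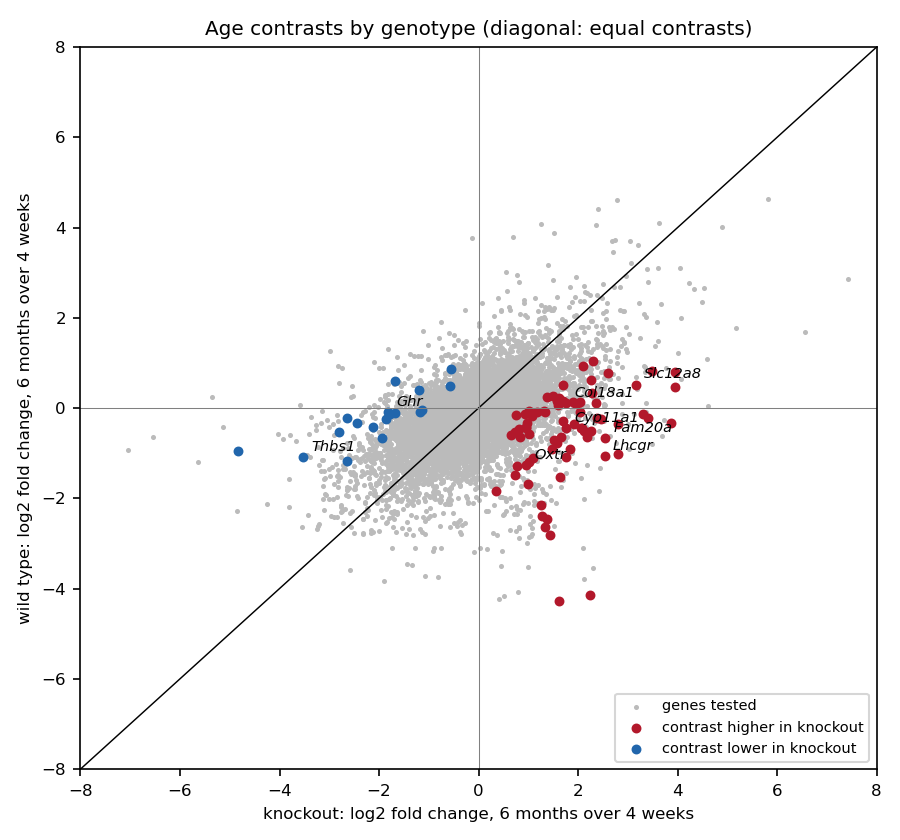
Log2 fold change of 6 months over 4 weeks in knockout (horizontal axis) against that in wild type (vertical axis) for the 14307 genes tested, with the 76 genes whose contrast was higher in knockout and the 18 whose contrast was lower in colour; the diagonal marks equal contrasts. Lhcgr, Oxtr and Cyp11a1 lie right of it, with positive values in knockout and negative values in wild type, and Thbs1 and Ghr lie left of it.

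Cholesterol synthesis rose along nearly the whole pathway. Of 25 genes, 22 were higher at 6 months in knockout and none lower, with a median log2 fold change of 1.61, and 15 had no overlap between the libraries of the 2 ages. Wild type went the same way, with 17 higher and 1 lower (Hsd17b7) and a median of 1.14. Of all genes, 3.17% were higher and 4.82% lower in wild type. Of the 25 only Fdps differed between the genotypes in its contrast. The count in knockout lay between 20 and 23 in the alternatives tried, except with the low-Ovgp1 libraries alone, where it was 17. With library totals it was 21 higher and 1 lower. Among the 3 without a call were Hsd17b7 and Srebf2, which encodes the transcription factor of the pathway (0.39 ± 0.17, adjusted p = 0.121).

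Fdps, which makes farnesyl diphosphate, measured 865 to 2680 CPM (median 2373) in knockout at 6 months and 388 to 585 CPM (median 483) at 4 weeks. No library overlapped, and the log2 fold change was 2.10 ± 0.21 (adjusted p = 2.36e-09). Its contrast exceeded that of wild type by 1.16 ± 0.27 (adjusted p = 0.0256). Mvd, the decarboxylase that yields the isoprene unit, held 65.6 to 387 CPM at 6 months and 23.5 to 44.5 CPM at 4 weeks (2.50 ± 0.35, adjusted p = 4.04e-06). Mvk, mevalonate kinase, held 76.7 to 206 CPM at 6 months and 21.8 to 51.7 CPM at 4 weeks (2.03 ± 0.35, adjusted p = 8.81e-05). Ebp, a late sterol isomerase, held 144 to 293 CPM at 6 months and 84.6 to 125 CPM at 4 weeks (1.14 ± 0.20, adjusted p = 0.000101). All 3 separated the ages without overlap. Sqle, the squalene epoxidase, rose by 1.62 ± 0.38 (adjusted p = 0.00383). Library 4 at 6 months had the lowest Stard4, a cholesterol carrier gene, of its group, at 28.8 CPM. Acat2, Fdft1 and Idi1 have near-identical copies in the annotation (at least 95% over 300 bases or more), so their reads may be split between loci.

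**Figure D5:**
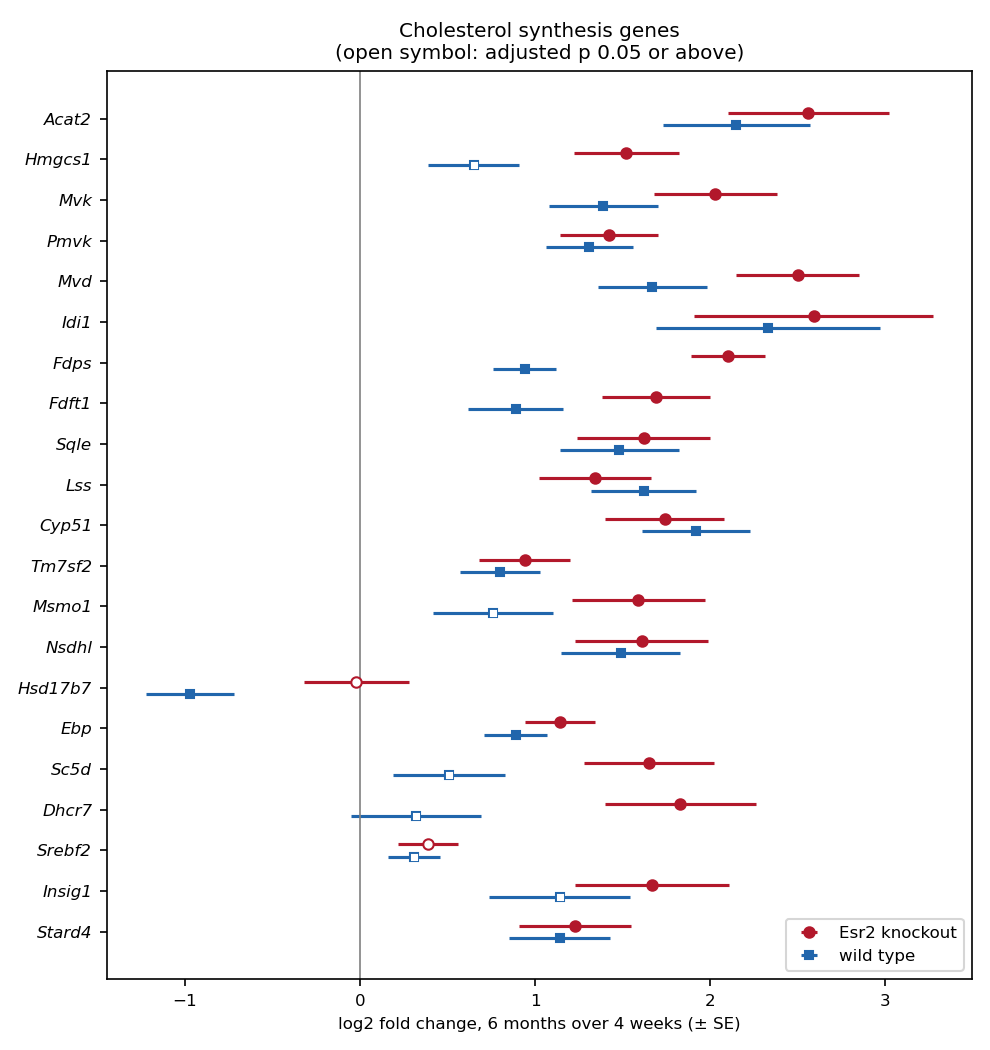
Log2 fold change of 6 months over 4 weeks, with its standard error, for 21 genes of the cholesterol list in knockout (circles) and wild type (squares); open symbols did not pass the test. Knockout circles lie right of 0 for 20 of the 21 genes shown.

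Shown are the promoters of the 3 pathway genes with the smallest p among those with a window near the annotated start that holds CCAAT, so its presence in these 3 is no result. CCAAT is the box bound by NF-Y, a factor known to work beside the sterol-regulated SREBP factors. It is given in capitals, as ATTGG where it lies on the other strand. The windows are the 250 bases before the start, from RefSeq (GRCm38.p6): Mvd chr8:122443423-122443672 (minus strand), Mvk chr5:114444019-114444268 (plus strand) and Ebp chrX:8193513-8193762 (minus strand).
Mvd: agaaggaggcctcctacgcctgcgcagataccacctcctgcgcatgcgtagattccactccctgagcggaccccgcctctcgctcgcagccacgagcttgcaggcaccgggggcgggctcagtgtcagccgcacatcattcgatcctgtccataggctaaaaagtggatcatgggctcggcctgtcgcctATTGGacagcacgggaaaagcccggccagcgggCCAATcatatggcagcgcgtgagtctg
Mvk: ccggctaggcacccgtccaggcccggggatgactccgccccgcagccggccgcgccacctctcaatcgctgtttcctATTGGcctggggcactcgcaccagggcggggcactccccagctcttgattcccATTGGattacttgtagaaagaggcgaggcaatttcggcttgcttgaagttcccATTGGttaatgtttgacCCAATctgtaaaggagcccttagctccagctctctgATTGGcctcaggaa
Ebp: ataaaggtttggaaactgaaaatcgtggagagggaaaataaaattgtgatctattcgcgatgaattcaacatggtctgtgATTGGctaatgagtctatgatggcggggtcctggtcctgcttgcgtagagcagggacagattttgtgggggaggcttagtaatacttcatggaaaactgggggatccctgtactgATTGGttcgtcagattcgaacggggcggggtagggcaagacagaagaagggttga
Mvd held 2 copies, Mvk 5 and Ebp 2. CCAAT, searched on both strands, was found before a start of 16 of the 17 pathway genes with a window (94.1%, all but Acat2), against 40.3% of the 10264 tested genes with a window. Among all genes called higher the share was 48% of 675, and among those called lower 36.7% of 802. None of the windows printed held both CCAAT and AGGTCA. These are matches of letters, not sites shown to be bound.

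Of 20 steroid synthesis genes tested, 6 rose and 1 fell, and under library totals 6 rose and 5 fell. Beside Star, Cyp11a1 and Akr1c18 these were Fdx1, the ferredoxin that passes electrons to Cyp11a1 (2144 to 3797 CPM at 6 months, 1173 to 1690 CPM at 4 weeks; 1.08 ± 0.18, adjusted p = 2.85e-05), Hsd17b12 (213 to 456 CPM at 6 months, 121 to 177 CPM at 4 weeks; adjusted p = 0.00104) and the cytochrome b5 gene Cyb5a (0.86 ± 0.23, adjusted p = 0.00873). Akr1c14, a 3 alpha-hydroxysteroid dehydrogenase, fell to 10.9 to 57.5 CPM at 6 months, against 120 to 210 CPM at 4 weeks (-2.49 ± 0.33, adjusted p = 9.92e-07). Mrap, the accessory protein of the corticotropin receptor, was among the genes with the smallest p over all and rose by 1.69 ± 0.21 (782 to 2179 CPM at 6 months, 345 to 617 CPM at 4 weeks; adjusted p = 4.76e-07). Its contrast also exceeded that of wild type (1.18 ± 0.28, adjusted p = 0.0256).

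Genes of ovulation and cumulus expansion, the change that follows the luteinizing hormone surge, had 8 of 25 higher and 1 lower, with a median of 0.44. Adamts1, the protease that cuts versican in the expanding matrix, held 121 to 342 CPM in knockout at 6 months and 28.8 to 79.1 CPM at 4 weeks (1.95 ± 0.27, adjusted p = 3.79e-06). In wild type it held 72.2 to 203 CPM at 6 months and 54.5 to 247 CPM at 4 weeks, and the difference of the contrasts passed (1.85 ± 0.35, adjusted p = 0.00475). Hif1a, the hypoxia factor, held 551 to 958 CPM at 6 months and 191 to 339 CPM at 4 weeks in knockout (1.59 ± 0.23, adjusted p = 4.1e-06), and it rose in wild type by 1.00 as well. Errfi1, a feedback inhibitor of the EGF receptor, rose by 2.44 ± 0.56 (adjusted p = 0.00319), and the EGF-like ligand genes Btc, Ereg and Areg also rose. Nrip1, a corepressor needed for ovulation, fell by 1.09 ± 0.24 on the log2 scale (adjusted p = 0.00172).

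Cell cycle genes had 10 of 32 higher and none lower, with a median of 0.47. The mitotic cyclin gene Ccnb2 held 89.3 to 166 CPM in knockout at 6 months and 36.7 to 79.6 CPM at 4 weeks (1.28 ± 0.24, adjusted p = 0.000356). Birc5 (0.94 ± 0.22), Rrm2 (1.30 ± 0.30) and Cdk1 (0.92 ± 0.22) rose as well. With the low-Ovgp1 libraries alone 1 cell cycle gene passed. In wild type, where 3.17% of all genes rose and 4.82% fell, 5 rose and none fell. None of the 32 passed the test of the difference between genotypes.

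Antioxidant genes had 11 of 27 higher and 1 lower, with a median of 0.72. Fth1, the ferritin heavy chain that stores iron, held 4943 to 7985 CPM at 6 months and 2017 to 3995 CPM at 4 weeks in knockout (1.12 ± 0.21, adjusted p = 0.000214). The peroxiredoxin genes Prdx1 (0.99 ± 0.20, adjusted p = 0.000525) and Prdx2 (0.80 ± 0.16, adjusted p = 0.0009) and the glutathione synthetase gene Gss (1.15 ± 0.24, adjusted p = 0.0013) rose too. Prdx1 has near-identical processed copies in the annotation. With library totals 7 rose and 2 fell, and with the surface epithelium sum as a covariate 5 rose and none fell. Slc40a1, which exports iron from cells, fell to 35.8 to 95.2 CPM in knockout at 6 months, against 169 to 480 CPM at 4 weeks (-2.14 ± 0.27, adjusted p = 4.32e-07).

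Glycolysis genes had 5 of 20 higher and 1 lower, with a median of 0.52, and 2 higher under library totals. Aldoc (1.67 ± 0.42, adjusted p = 0.00639), Pgam1 (1.01 ± 0.26, adjusted p = 0.00687) and Ldha (0.72 ± 0.23, adjusted p = 0.0285) rose, and Pdk4, which keeps pyruvate from being oxidised, fell by 1.79 ± 0.46 on the log2 scale (adjusted p = 0.00675). The call was kept in 25 of 28 alternatives for Aldoc, 27 for Pgam1, 26 for Pdk4 and 21 for Ldha. Each of them missed the threshold with the low-Ovgp1 libraries alone. Nuclear genes of oxidative phosphorylation had 5 of 73 higher and none lower (median 0.13), led by Ndufa10, Atp5c1, Ndufs8 and Cycs. Under library totals 2 of them were higher and 1 lower. Cytosolic ribosomal protein genes had 2 of 54 higher, Rpl15 and Rplp0, and none lower (median -0.10). Each of the 2 kept its call in 13 of 28 alternatives, and none of the 54 passed under library totals or with the length trend removed. Both shares lie near the 6.58% of all genes.

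On the other side, no gene of the granulosa and follicle-stimulating hormone list rose and 6 of 27 fell, with a median of -0.31, and 11 fell under library totals. Bmpr1b, a receptor for bone morphogenetic proteins, held 42.3 to 98.9 CPM in knockout at 6 months and 98.7 to 189 CPM at 4 weeks (-1.12 ± 0.21, adjusted p = 0.00026), so the 2 ranges touched. Grem1, an antagonist of those ligands, held 98.8 to 261 CPM at 6 months and 250 to 583 CPM at 4 weeks (-1.36 ± 0.27, adjusted p = 0.000505). Igf1r, the receptor for insulin-like growth factor 1, fell by 1.06 ± 0.23 (adjusted p = 0.00168) and Fst, the activin-binding follistatin, by 1.34 ± 0.32 (adjusted p = 0.00391), both on the log2 scale. With the low-Ovgp1 libraries alone 1 of the list fell, and it was not among these 6, none of which kept its call there. Greb1, a gene known to respond to estrogen, was not on the list but was among the genes with the smallest p, at 185 to 510 CPM at 6 months and 805 to 1511 CPM at 4 weeks in knockout (-1.50 ± 0.21, adjusted p = 3.8e-06). Its contrast in wild type was -1.46, and the difference was -0.03 ± 0.27 (adjusted p = 0.977).

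TGF-beta family genes had 8 of 34 lower and 1 higher, with a median of -0.60, and 15 lower under library totals. Beside Bmpr1b, Grem1 and Fst, the target gene Id3 fell (230 to 497 CPM at 6 months, 667 to 1365 CPM at 4 weeks; -1.37 ± 0.26, adjusted p = 0.000391). Id2, a related inhibitor of differentiation, rose by 1.31 ± 0.26 (adjusted p = 0.000531), and its contrast exceeded that of wild type (1.37, adjusted p = 0.0371). Wnt signalling genes had 6 of 21 lower and 1 higher. Tcf7l2, the transcription factor at the end of the pathway, fell to 17.7 to 36.8 CPM at 6 months, against 50.9 to 156 CPM at 4 weeks (-1.95 ± 0.25, adjusted p = 6.49e-07). Lgr6, a receptor for R-spondins, fell by 2.16 ± 0.49 on the log2 scale (adjusted p = 0.00244).

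Matrix and basement membrane genes had 8 of 34 lower and 3 higher, and 12 lower and 2 higher under library totals. Thbs1 had the smallest p of the list, with a log2 fold change of -3.53 ± 0.33 (adjusted p = 7.93e-10), and Col18a1 the next, with 1.76 ± 0.21 (adjusted p = 8.72e-08). Lama1, a laminin chain, held 95.7 to 164 CPM at 6 months and 243 to 518 CPM at 4 weeks (-1.37 ± 0.21, adjusted p = 1.67e-05), and the heparan sulfate proteoglycan gene Agrn fell by 1.42 ± 0.29 on the log2 scale (adjusted p = 0.000903). Wild type had 8 lower and 1 higher in the same list, with 4.82% of all genes lower and 3.17% higher there.

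Apoptosis and atresia genes had 5 of 23 lower (21.7%) and 1 higher (4.35%), beside 7.19% lower and 6.58% higher of all genes tested. Gadd45a, a stress gene, held 23.2 to 39.4 CPM at 6 months and 49.2 to 215 CPM at 4 weeks (-1.71 ± 0.37, adjusted p = 0.00182), and Foxo1, which drives granulosa cell death genes, fell by 1.07 ± 0.28 (adjusted p = 0.00851). Clu, the chaperone clusterin, fell by 1.13 ± 0.35 (adjusted p = 0.0274), and Bmf, a death activator, by 1.18 ± 0.38 (adjusted p = 0.0308). The call was kept in 22 of 28 alternatives for Clu and in 21 for Bmf. Interferon and inflammation genes had 5 of 23 lower (21.7%) and 1 higher (4.35%). Bst2, Ifi27 and Irf7, genes that interferon induces, were among those that fell. Wild type had 5 lower in this list too, where 4.82% of all genes were lower. Of 28 immediate early and heat shock genes 3 fell, or 10.7%, near the 7.19% of all genes called lower, and none rose. The 3 were Egr2 (-1.81 ± 0.38, adjusted p = 0.00105), Klf2 (-1.16 ± 0.37, adjusted p = 0.0321) and Zfp36 (-1.15 ± 0.40, adjusted p = 0.0489). Klf2 kept its call in 19 of 28 alternatives and Zfp36 in 10. Hspa8, a constitutive chaperone with near-identical copies in the annotation, had 0.75 ± 0.27 (adjusted p = 0.0563).

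Of the steroid receptor list, 5 genes were tested and none passed. Esr1, the remaining estrogen receptor gene, had 11.1 to 102 CPM in knockout at 6 months and 18.7 to 65.5 CPM at 4 weeks (0.71 ± 0.45, adjusted p = 0.298). Its value was -0.45 with the low-Ovgp1 libraries alone and -0.02 with the surface epithelium covariate. Nr3c1 had -0.44 ± 0.28 (adjusted p = 0.295) and Esrra -0.45 ± 0.42 (adjusted p = 0.5).

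Among the remaining genes with the smallest p, Tgm2, a transglutaminase that crosslinks proteins, held 42.6 to 142 CPM at 6 months and 4.8 to 21.6 CPM at 4 weeks in knockout (3.50 ± 0.42, adjusted p = 2.96e-07). Aqp1, a water channel also found in vessels, held 16.2 to 30.3 CPM at 6 months and 0.521 to 2.6 CPM at 4 weeks (3.94 ± 0.49, adjusted p = 3.8e-07). Nts, the neurotensin gene, held 138 to 562 CPM at 6 months and 22.7 to 46.2 CPM at 4 weeks (2.86 ± 0.37, adjusted p = 7.97e-07). None of these 3 overlapped between the ages. Arhgdib, an inhibitor of GDP release from small GTPases (1.94 ± 0.26), and the small GTPase gene Rab33a (1.44 ± 0.20) rose without overlap too. Endothelial markers summed to 18.2 to 50.1 CPM at 6 months and 21.3 to 34.6 CPM at 4 weeks, with none of 7 tested past the threshold. On the lower side, Elmo1, an adaptor of cell engulfment, held 11.7 to 32.2 CPM at 6 months and 69.1 to 168 CPM at 4 weeks (-2.64 ± 0.30, adjusted p = 5e-08). Mlf1 (-1.90 ± 0.22), the potassium channel gene Kcnma1 (-2.77 ± 0.36), the phosphatase gene Ptprd (-1.96 ± 0.27) and the integrin gene Itgb3 (-2.24 ± 0.31) fell, each without overlap. These 10 genes passed also with the low-Ovgp1 libraries alone.

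Genes that an earlier look at these data had picked for knockout against wild type moved between the ages in both directions. Of 25, 9 rose and 8 fell in knockout, and 8 passed the test of the difference between the age contrasts. As they were picked on these libraries, the 4 week knockout libraries among them, their directions are a description only. Itih5, a hyaluronan-binding matrix protein gene, was 0 to 3.03 CPM at 6 months and 12.1 to 64.3 CPM at 4 weeks in knockout, and 0 to 2.72 CPM in wild type at 6 months. Dmbt1, a secreted scavenger receptor gene, held 12.6 to 62.7 CPM at 6 months and 2.73 to 16.1 CPM at 4 weeks in knockout, and 34.4 to 111 CPM in wild type at 6 months. Thbs4, by contrast, stood at 5.71 to 15.6 CPM at 6 months and 5.46 to 36.2 CPM at 4 weeks in knockout (-0.75 ± 0.33, adjusted p = 0.121) and at 155 to 347 CPM in wild type at 6 months.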

How the data were processed

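Granulosa libraries were analysed from the 3 deposited tables of expected counts, which the authors estimated per gene and did not normalise. Per the submitters' processing notes STAR, Partek and DESeq2 were used, with the mm10 build. Versions and the annotation are not given in the sources used here. Of the values, 82.5% were whole; all were rounded. The tables for 4 weeks (19744 genes), 7 weeks (18613) and 6 months (17681) were joined by gene symbol, which left 16728 genes. Genes listed at only 1 age (543 at 6 months, 2606 at 4 weeks, between those tables) were not tested. No 2 libraries held identical values.

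Genes were filtered with filterByExpr (14307 kept), scaled by TMM and tested with the robust quasi-likelihood F test of edgeR 4.0.16 (R 4.3.3) in 1 model of 42 libraries with a mean per genotype and age, with Benjamini-Hochberg adjustment over all genes tested. Fold changes are log2 ratios, the first-named group over the second, with standard errors (SE) from the fit. Gene CPM values follow TMM; Esr2, Ovgp1 and marker sums use library totals. The fit was tested on simulated data. Alternatives were limma 3.58.1 voom, DESeq2 1.42.0, other scalings and filters, thinning, removal of the length trend, a replicate block and leaving out single libraries; Ovgp1, surface epithelium, immune and 2-table settings were chosen after seeing the data.

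The members, gene lists and tests were chosen with earlier results of these data known. Named genes were Esr2, Esr1, the luteal list, for each direction the 12 leading genes by p at a mean of at least 5 CPM, up to 4 genes per list, and the 5 higher and 5 lower of the contrast difference, leaving out predicted and pseudogene loci. Some list members enter the counts but are not reported here by name. Genes named beyond these were chosen after their values were seen, as were the promoter motifs. Coordinates are from GENCODE vM21 (GRCm38). The protocol does not state strand, and exons of Fdft1, Hmgcs1, Gadd45a, Pim1 and Tgm2, among others, overlap genes on the opposite strand, and those of Tm7sf2 a gene on the same strand. Depth was 1486396 to 5130419 counts per knockout library at 6 months and 2814194 to 4085475 at 4 weeks.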

Additional observations from a re-analysis of the deposited data

Results flagged for a closer look

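In 198 checks of a named gene within 1 knockout group, 11 libraries stood far from the rest of their group; chance flags about 1 in 20 groups. At 6 months library 4 was low for Fam20a (21.7 CPM, next 45.7), Hsd3b1 (1152 CPM, next 2490), Pik3c2g (13.1 CPM, next 25.4), Prlr (62.1 CPM, next 203) and Rab33a (76.7 CPM, next 132), and high for Itgb3 (109 CPM, next 77.1). Library 3 was low for Lgr6 (1.95 CPM, next 4.82) and Mlf1 (46.5 CPM, next 86.1). Library 5 was high for Arhgdib (279 CPM, next 163) and library 1 low for Rpl15 (51.4 CPM, next 68). At 4 weeks library 7 was high for Tgm2 (21.6 CPM, next 9.11).

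The age contrast differed between knockout and wild type, by the test of the difference, for 14 genes named for it or for luteal function. The difference on the log2 scale, knockout minus wild type, was 3.60 for Lhcgr, 3.21 for Fam20a, 2.64 for Slc12a8, 2.37 for Entpd1, 2.23 for Pik3c2g, 2.23 for Oxtr, 2.20 for Cyp11a1 and 1.66 for Col18a1. It was -2.44 for Thbs1, -2.41 for Ddit4l, -2.29 for Mreg, -2.10 for Pim1, -1.73 for Ghr and -1.72 for Rel.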

How the results depend on the processing

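Of 111 named genes called between the ages in knockout, 56 kept their call in all alternatives and none changed direction. The 1970 genes called became 802 with the surface epithelium covariate and 308 with the low-Ovgp1 libraries alone, and 1261 to 2090 when 1 library was left out. Luteal calls were 9, against 5 with the low-Ovgp1 libraries alone, which also gave 2 against wild type at 4 weeks and 0 against wild type at 6 months. Wild type calls were 1144, against 653 after thinning and 328 with the low-Ovgp1 libraries. The 94 differences of contrasts became 179 with DESeq2, 53 with voom, 47 after thinning, 10 with the low-Ovgp1 libraries, and 41 to 100 when 1 library was left out. The causes were not tested. Some of these settings hold fewer libraries or genes, while DESeq2, voom and the surface epithelium covariate used every library.

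The replicate numbers do not pair the libraries, as same-numbered ones had correlations of -0.386 to -0.0177. With a replicate block 2143 genes were called in knockout, 1475 of them among the 1970, and 15 differences of contrasts.

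Among genes without a call, Hsd17b7 was positive with the block (0.18), voom (0.04), the length trend removed (0.10), the surface epithelium (0.24), Ovgp1 (0.01) and immune (0.02) covariates and the low-Ovgp1 libraries (0.15), and ran from -0.15 to 0.21 when 1 library was left out. Esr1 was -0.02 with the surface epithelium covariate and -0.45 with the low-Ovgp1 libraries. With library totals Ptgfr was -0.03 and Cdkn1a -0.01, and Ptgfr ran from -0.08 to 0.47 when 1 library was left out. Depth limits genes near 1 CPM, such as Ptgfr.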
